A study of Mus musculus with 45 samples.

Results

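A group of 10 genes for secreted acute phase reactants was followed across every mouse liver array: Saa1, Saa2, Saa3, Orm2, Lcn2, Hp, Hpx, Apcs, Itih4 and Serpina3n. They were taken by name from a list of 10 symbols, drawn up with earlier results of these arrays known, and all 10 were present among the 18180 genes of the table. Acute phase proteins are plasma proteins that hepatocytes make in larger or smaller amounts after injury, infection or burns. Interleukin-6, acting through the gp130 receptor and the transcription factor STAT3, and interleukin-1, acting through NF-kappaB, are their classical inducers in the liver, and C/EBP factors and glucocorticoids act together with them. The listed proteins include lipoproteins of the serum amyloid A family, carriers of the lipocalin fold, scavengers of free haemoglobin and haem, a pentraxin and protease inhibitors.

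Livers of male C57Bl/6J mice, 8 weeks old by the series' design text, were compared in 9 groups of 5 mice with 1 Affymetrix mouse genome array each. All mice had been fasted for 16 h. The untreated group was killed at 0 h. The vehicle groups received 1% hydroxyethylcellulose by oral gavage and were killed at 3, 6, 9 or 24 h, and the APAP groups received 300 mg/kg of APAP (acetaminophen, paracetamol) in that vehicle and were killed at the same times. APAP is a model hepatotoxin: liver cytochromes turn part of a large dose into a reactive quinone imine that depletes glutathione and kills hepatocytes around the central veins. Values are log2 intensities in which a difference of 1 is a doubling, and since every gene is read by probes of its own, levels were compared only within a gene. A gene was called higher or lower where the change was at least 1.5-fold and limma gave a p under 0.05 after Benjamini-Hochberg adjustment across the 18180 genes.

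Array medians lay between 7.59 and 7.66, and within a group arrays correlated at 0.980 or more. The liver label held: the mean log2 value of 9 hepatocyte markers, albumin and transthyretin among them, ran from 13.74 to 14.13 over all arrays, and 8 pancreas and gallbladder markers had means between 6.92 and 7.35 except in APAP 6 h mouse 5, at 10.20. At 24 h APAP mice 1 and 3 had the highest values of their group for every member and for mean neutrophil and monocyte/macrophage markers. Results at 24 h are given with and without them. As these mice were highest for the members, leaving them out lowers each difference from vehicle and can narrow the spread. The adjusted p-values and calls without them are therefore a description and not a test. In whole liver, a change in RNA per cell and a change in the number of cells of a type cannot be told apart.

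Saa1 and Saa2, the genes of the acute phase serum amyloid A apolipoproteins, lie head to head on chromosome 7 (GRCm38.p6), Saa1 (Entrez gene 20208) at 46740497-46743181 on the minus strand and Saa2 (Entrez gene 20209) at 46751833-46754313 on the plus strand, with 8651 bases between them. RefSeq lists each symbol as an older synonym of the other, so the genes are identified here by Entrez number. Their promoters are shown because they are near copies of each other, beside those of Orm2, which codes for an alpha-1-acid glycoprotein, Lcn2, which codes for the siderophore-binding lipocalin 2, and Apcs, which codes for serum amyloid P component. Each run is the 250 bases before the start in the RefSeq promoter table (GRCm38.p6), 5′ to 3′ on the gene's strand, and capitals mark matches on either strand to the C/EBP pattern TTNNGNAA or, in Apcs, the STAT pattern TTCNNNGAA.
Saa1, chr7:46742981-46743230, minus strand: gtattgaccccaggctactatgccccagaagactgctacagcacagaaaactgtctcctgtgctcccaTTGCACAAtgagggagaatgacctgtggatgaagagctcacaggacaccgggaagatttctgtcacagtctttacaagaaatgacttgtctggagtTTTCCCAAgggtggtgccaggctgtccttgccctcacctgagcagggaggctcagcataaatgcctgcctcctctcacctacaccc
Saa2, chr7:46751583-46751832, plus strand: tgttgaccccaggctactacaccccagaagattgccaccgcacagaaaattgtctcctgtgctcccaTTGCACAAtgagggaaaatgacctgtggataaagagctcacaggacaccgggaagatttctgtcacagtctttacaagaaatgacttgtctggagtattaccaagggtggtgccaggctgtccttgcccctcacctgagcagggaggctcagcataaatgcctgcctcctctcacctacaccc
Orm2, chr4:63362199-63362448, plus strand: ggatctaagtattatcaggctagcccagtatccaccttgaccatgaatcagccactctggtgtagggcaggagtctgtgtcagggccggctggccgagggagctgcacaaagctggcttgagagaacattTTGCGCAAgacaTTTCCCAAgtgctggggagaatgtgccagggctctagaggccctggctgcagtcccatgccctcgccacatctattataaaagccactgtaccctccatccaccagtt
Lcn2, chr2:32387740-32387989, minus strand: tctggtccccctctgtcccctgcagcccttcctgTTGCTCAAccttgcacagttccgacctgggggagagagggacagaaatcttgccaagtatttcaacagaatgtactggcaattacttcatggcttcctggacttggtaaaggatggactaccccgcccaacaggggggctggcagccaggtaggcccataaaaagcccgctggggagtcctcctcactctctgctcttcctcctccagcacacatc
Apcs, chr1:172895055-172895304, minus strand: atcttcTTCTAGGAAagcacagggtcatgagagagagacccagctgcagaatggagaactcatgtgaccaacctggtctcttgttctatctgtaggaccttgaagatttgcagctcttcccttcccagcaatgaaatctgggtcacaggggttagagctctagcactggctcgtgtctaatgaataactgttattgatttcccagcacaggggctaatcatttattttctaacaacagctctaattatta

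A minimum of 13 single-base edits turns the Saa1 run into the Saa2 run. The Saa1 start of that table lies 201 bases inside the annotated gene, the Saa3 start 3939 bases and the Serpina3n start 62 bases inside theirs, and the starts of Saa2, Orm2, Lcn2 and Apcs coincide with the 5′ ends of their genes. Promoters of 9 of the 10 members were in the table, Hp having no entry. The C/EBP pattern was found in 7 of these 9 windows, where 36.9% of all 32841 windows of this length held it. The STAT pattern was found in 2 of 9 windows, those of Apcs and Itih4, against 7.02% of all windows, and the NF-kappaB consensus in 0 of 9 against 7.25%. A match describes the letters and not a bound site, and the absence of a match says nothing about the factor outside this window.

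In untreated livers, Hp, the gene of the haemoglobin scavenger haptoglobin, and Hpx, the gene of the haem scavenger hemopexin, had mean log2 values of 14.57 ± 0.0332 and 14.56 ± 0.0373 (SD, n = 5). Their probes and those of Itih4, the gene of inter-alpha-trypsin inhibitor heavy chain 4, were brighter than the 99th percentile of the array in all 45 arrays, which describes probe brightness and not the amount of RNA. Whether probes near the end of the scale compress differences was not tested. Means of the other untreated levels were 11.90 ± 0.298 for Saa1, 7.43 ± 0.215 for Saa2, 9.31 ± 0.205 for Saa3, 8.75 ± 0.435 for Orm2, 10.13 ± 0.765 for Lcn2, 11.71 ± 0.171 for Apcs, 13.95 ± 0.183 for Itih4 and 12.92 ± 0.136 for Serpina3n (SD, n = 5 each).

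**Figure D1:**
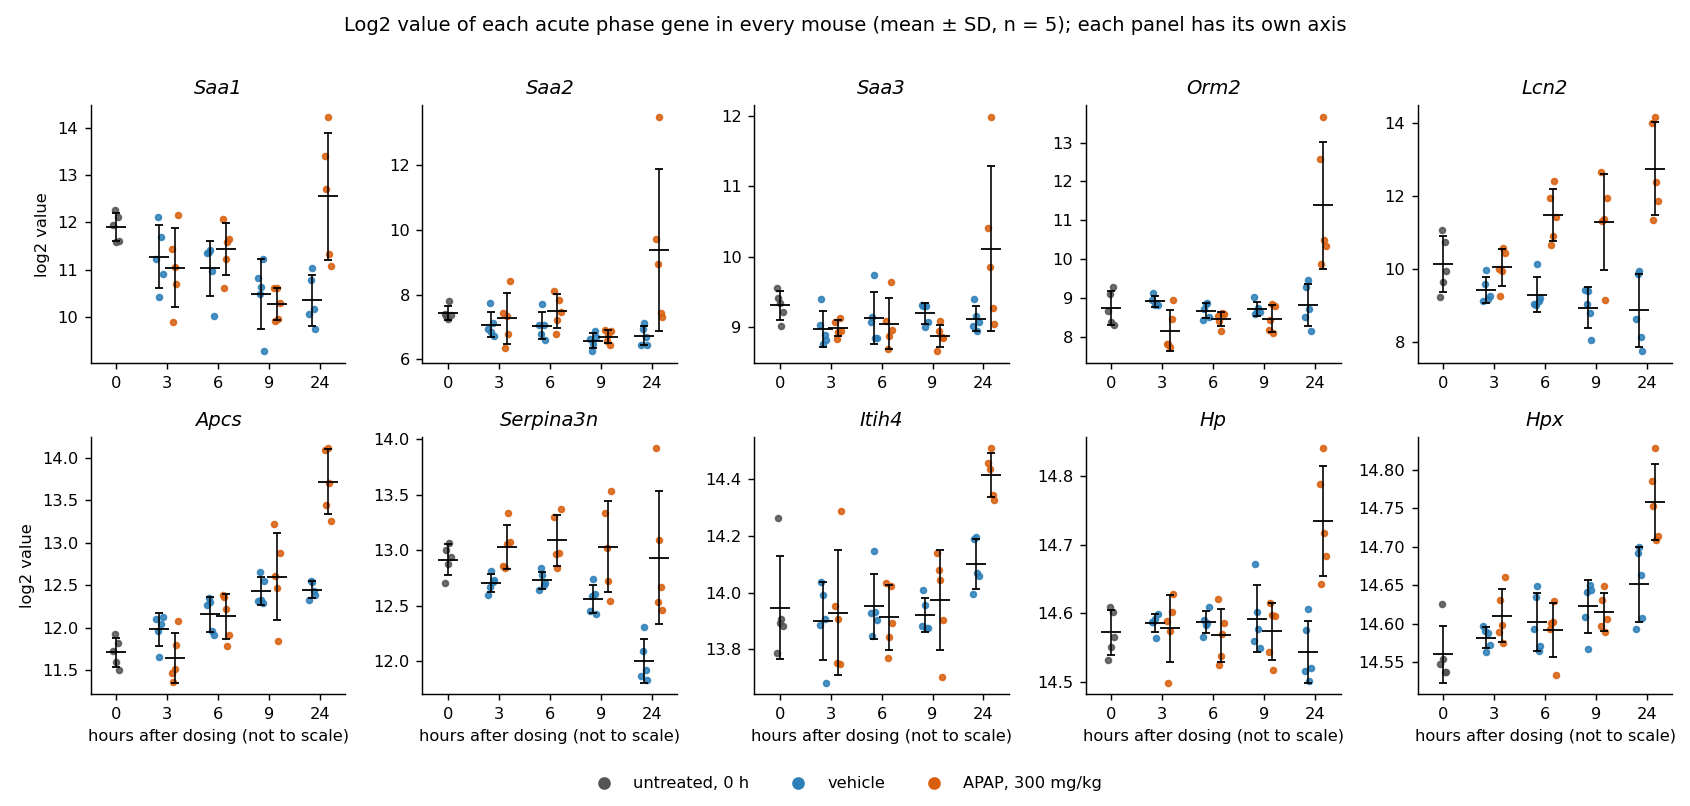
Log2 value (y axis, a separate axis for each gene) of the 10 members in each mouse against hours after dosing (x axis, not to scale) in untreated, vehicle and APAP livers. Points are mice, and bars are the mean ± SD of 5 mice. At 24 h the APAP mice lie above all vehicle mice for every member except Saa3, and within the APAP group at 24 h the spread of Saa2 (SD 2.52) is wider than at any other time.

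The main change came at 24 h after APAP, when 5 of the 10 members were higher than in time-matched vehicle livers and 0 were lower, beside 2.86% of all genes called higher and 1.82% called lower. The 5 were Lcn2, Orm2, Saa1, Apcs and Serpina3n. The median log2 fold change of the 10 members was 1.14, beside -0.05 over all genes, and for 9 of the 10 the APAP and vehicle mice did not overlap, beside 20.3% of all genes. Because of how the list was drawn up, these counts describe the list and do not test it.

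Lcn2 had the largest change of the members. Its log2 values were 14.00, 11.34, 14.17, 12.37 and 11.87 in the APAP mice and 8.64, 9.87, 9.95, 8.13 and 7.74 in the vehicle mice at 24 h. Every APAP mouse was above every vehicle mouse, and the APAP mice themselves fell into mice 1 and 3, at 14.00 or above, and 3 mice at 12.37 or below. The difference was 3.89 (SE 0.62, 14.8-fold, limma adjusted p = 0.00199), and 3.00 (7.99-fold, adjusted p = 0.00394) without APAP mice 1 and 3.

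Orm2 read 12.57, 9.87, 13.66, 10.50 and 10.32 after APAP and 8.50, 9.28, 9.46, 8.71 and 8.14 after vehicle. Its protein binds basic drugs in plasma. All APAP mice were above the vehicle range, mice 1 and 3 by the most and mouse 2 by the least. The log2 fold change was 2.57 (SE 0.66, 5.93-fold, limma adjusted p = 0.0169). Without mice 1 and 3 it was 1.41 (2.66-fold, adjusted p = 0.009).

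Of the serum amyloid A genes only Saa1 was called at 24 h. It read 13.40, 12.71, 14.23, 11.34 and 11.08 in the APAP mice and 10.05, 10.78, 11.03, 10.16 and 9.73 in the vehicle mice. The groups did not overlap, though APAP mouse 5 was only just above the highest vehicle mouse. The log2 fold change was 2.20 (SE 0.55, 4.59-fold, limma adjusted p = 0.0153), and 1.36 (2.56-fold, adjusted p = 0.0396) without mice 1 and 3.

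Saa2 read 9.73, 8.95, 13.49, 7.42 and 7.30 after APAP and 6.45, 6.92, 7.12, 6.70 and 6.46 after vehicle at 24 h. The groups did not overlap, and mouse 3 was far above the rest. The mean difference of 2.65 (SE 0.96) was larger than that of Saa1 but missed the threshold (limma adjusted p = 0.0582), and leaving out mouse 3 alone brought it to 1.62 and past the threshold (adjusted p = 0.0359). It was also called without APAP mouse 4 or 5 (3.14 and 3.17), with the replicate number as a block (adjusted p = 0.0496) and in 1 model over all 45 arrays (adjusted p = 0.000286). That model shares 1 spread over all groups, while the SD of Saa2 was 2.52 in these APAP mice and 0.29 in their vehicle mice. Its p-value for Saa2 at 24 h may therefore be too small. Without mice 1 and 3 the mean difference was 1.16 (2.23-fold, adjusted p = 0.0427).

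Saa3 encodes a serum amyloid A that in mice is made mainly outside hepatocytes, by macrophages and fat among others. Its values were 10.41, 9.86, 11.99, 9.27 and 9.05 after APAP and 9.02, 9.41, 9.15, 8.94 and 9.07 after vehicle. APAP mice 4 and 5 lay within the vehicle range and mouse 3 was far above it. The difference of 1.00 (SE 0.45) did not pass (limma adjusted p = 0.111), and it was 0.27 (adjusted p = 0.284) without mice 1 and 3. Saa1 and Saa2 are near copies, and whether their probes read each other's transcripts was not tested.

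Apcs, a pentraxin that is the main acute phase pentraxin of mice, had the steadiest rise. It read 14.09, 13.44, 14.11, 13.70 and 13.26 in APAP mice and 12.32, 12.55, 12.54, 12.43 and 12.38 in vehicle mice. Every APAP mouse was above 13 and every vehicle mouse below it. The log2 fold change was 1.28 (SE 0.15, 2.43-fold, limma adjusted p = 0.000536), and 1.02 (2.03-fold, adjusted p = 0.000236) without mice 1 and 3.

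Serpina3n, a secreted inhibitor of serine proteases, read 13.92, 12.53, 13.09, 12.67 and 12.46 after APAP and 11.86, 12.10, 12.31, 11.92 and 11.83 after vehicle. The groups did not overlap, with mouse 1 highest. The log2 fold change was 0.93 (SE 0.24, 1.91-fold, limma adjusted p = 0.0181). Without mice 1 and 3 it was 0.55 (1.46-fold, adjusted p = 0.00851), under the 1.5-fold minimum.

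Itih4, Hp and Hpx moved little. Itih4 was at 14.10 ± 0.0869 after vehicle and 14.41 ± 0.0771 after APAP (SD, n = 5), a log2 fold change of 0.31 (limma adjusted p = 0.0038). For Hp the means were 14.54 ± 0.0451 and 14.73 ± 0.0798, a difference of 0.19 (limma adjusted p = 0.0182). Both were below the 1.5-fold minimum and were not called, although no APAP mouse overlapped a vehicle mouse. Without mice 1 and 3 the difference of Hp was 0.14 (adjusted p = 0.0913). Hpx differed by 0.11 (14.65 ± 0.0486 after vehicle, 14.76 ± 0.05 after APAP, limma adjusted p = 0.0861), again with no overlap.

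**Figure D2:**
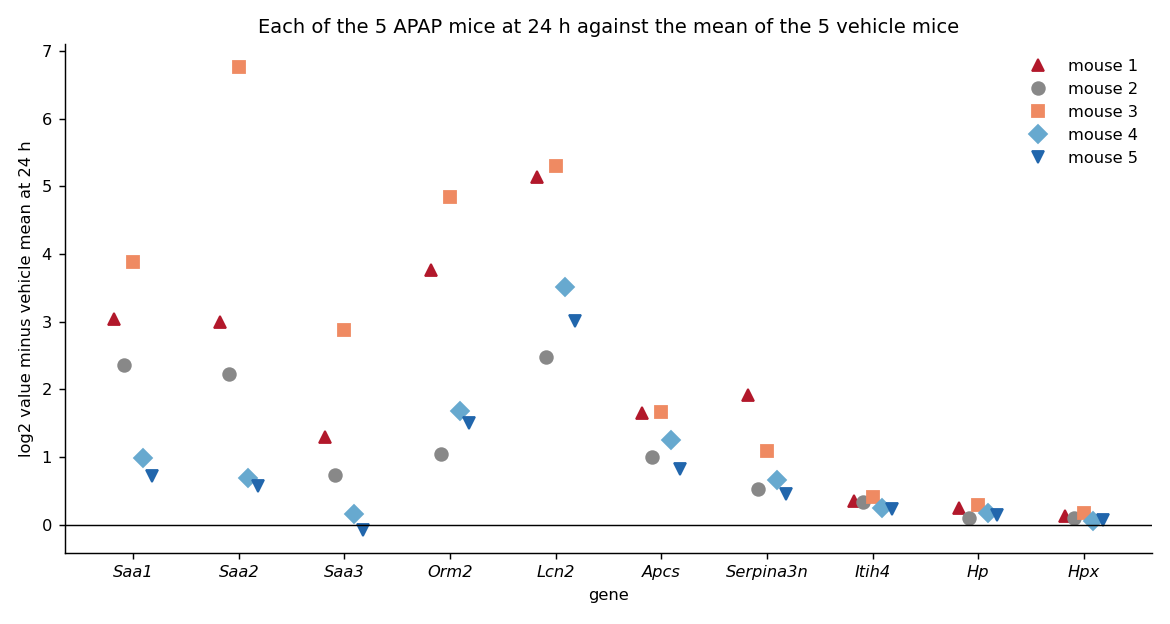
Log2 value of each APAP mouse at 24 h minus the mean of the 5 vehicle mice at 24 h (y axis) for the 10 members (x axis). Symbols are the 5 APAP mice. Mice 1 and 3 are the highest 2 of the group for all 10 members, and the differences of the other 3 mice are smaller but above 0 for every member except Saa3.

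The members shared the highest 2 of the APAP mice at 24 h, while the order of the rest differed between members. Mouse 3 was highest for 9 of 10 and mouse 1 for the tenth, Serpina3n, and mice 1 and 3 were the highest 2 for all 10. Mouse 5 was lowest for 6 members, mouse 2 for 3 and mouse 4 for 1. With mice 1 and 3, the highest 2, left out, 5 members were called as well, with Saa2 in place of Serpina3n. That count is a description and not a test. Leaving out any 1 array gave 5 or 6 called members.

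Markers of some leukocytes differed between the same mice. Neutrophils store lipocalin 2 in their granules, and macrophages can make serum amyloid A3. The mean log2 value of 15 neutrophil markers was 8.18, 7.72, 8.35, 7.59 and 7.46 in APAP mice 1 to 5 at 24 h and lay between 7.38 and 7.59 in the vehicle mice. Mice 1 and 3 were again the highest, and mice 4 and 5 were within the vehicle range. Without S100a8 and S100a9 the mean of the other 13 was 7.77, 7.69, 7.85, 7.54 and 7.46 after APAP and lay between 7.51 and 7.64 after vehicle, and the median log2 fold change of the 15 was 0.03. Of the 15 markers, 2 were called higher and 0 lower at 24 h, beside 2.86% and 1.82% of all genes. The 2 were S100a8, a calprotectin subunit, with a log2 fold change of 2.62 (limma adjusted p = 0.0338), and its partner S100a9, with 2.12 (adjusted p = 0.0382).

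S100a8 itself read 10.79, 7.50, 11.68, 7.71 and 7.18 in the APAP mice and 6.31, 6.08, 7.03, 6.26 and 6.07 in the vehicle mice at 24 h. All APAP mice were above the vehicle range, mice 1 and 3 far above it. The granulocyte receptor Csf3r had a log2 fold change of 0.51 (adjusted p = 0.0328), under the 1.5-fold minimum. Cxcr2, the chemokine receptor of neutrophils, had 0.09 (adjusted p = 0.62), the granule enzyme Mpo -0.21 (adjusted p = 0.0855) and the granule protease Elane -0.04 (adjusted p = 0.521). Neither granule gene passed.

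Of 13 monocyte and macrophage markers, 7 were called higher at 24 h and 0 lower, beside 2.86% and 1.82% of all genes. Among these markers were Chil3, a chitinase-like protein of activated macrophages, at 5.39 (limma adjusted p = 2.44e-05), Lgals3, galectin-3, at 3.50, and Cd68 at 1.73 (adjusted p = 0.000113). The mean of the 13 was 9.92, 9.21, 9.99, 8.98 and 8.91 in APAP mice 1 to 5 and lay between 8.00 and 8.16 in vehicle mice. All 5 APAP mice were above the vehicle range, with mice 1 and 3 highest. Other leukocyte markers did not share this order. Kupffer cell markers had means of 9.63, 9.78, 10.18, 9.18 and 9.01 in APAP mice 1 to 5. Lymphocyte markers had means of 6.67, 6.93, 6.70, 6.74 and 6.71. Hepatocyte markers had means between 13.74 and 13.88 after APAP and between 13.78 and 13.94 after vehicle. The part of these cells in the results of Lcn2, Saa3 and the other members was not tested.

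**Figure D3:**
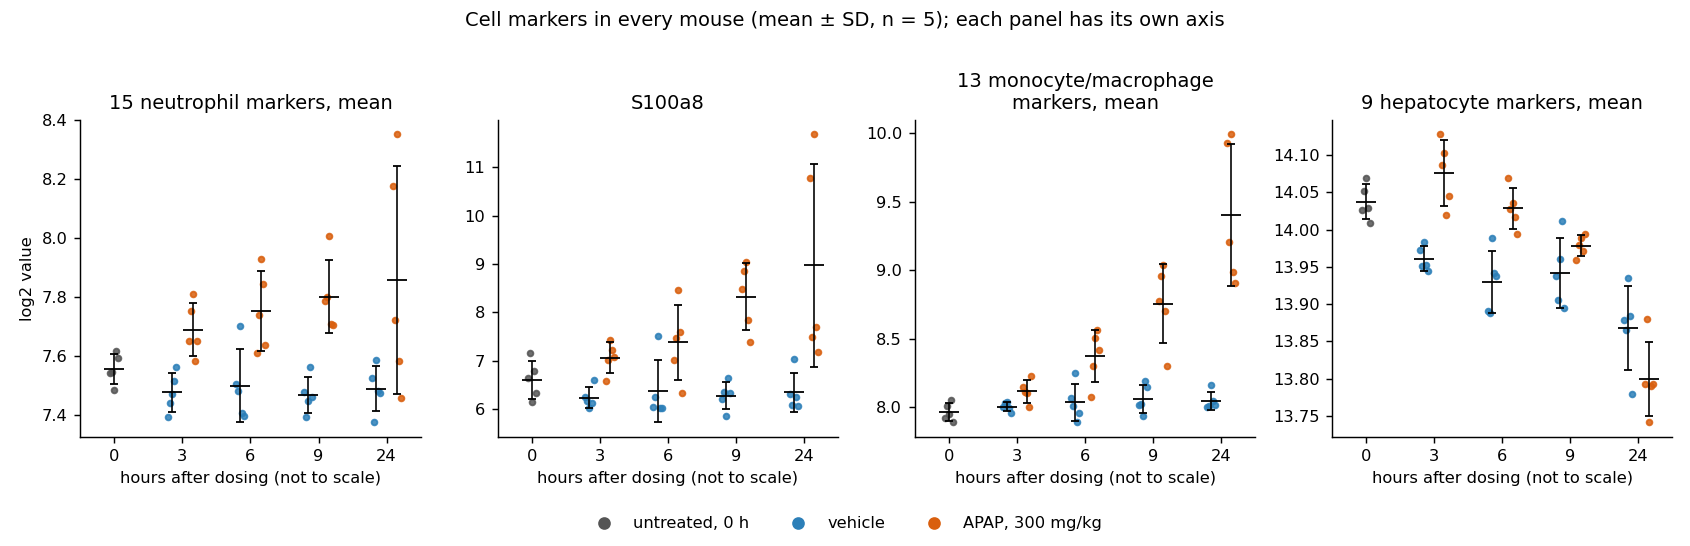
Mean log2 value of 15 neutrophil markers, log2 value of S100a8, and mean log2 values of 13 monocyte/macrophage and 9 hepatocyte markers (y axes, separate for each panel) in each mouse against hours after dosing (x axis, not to scale). Points are mice, and bars are the mean ± SD of 5 mice. APAP mice 1 and 3 at 24 h are the 2 highest points for the neutrophil mean, S100a8 and the monocyte/macrophage mean. Hepatocyte markers lie between 13.74 and 14.13, with all APAP mice above all vehicle mice at 3 h and 6 h.

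Before 24 h, Lcn2 was the only member called higher against vehicle. At 6 h, 1 of 10 members was higher and 0 were lower, beside 2.29% of all genes called higher and 3.03% called lower. Lcn2 read 11.93, 10.67, 10.91, 12.42 and 11.44 after APAP against 9.05, 9.00, 10.13, 9.13 and 9.19 after vehicle. The groups did not overlap, and the closest pair was APAP mouse 2 and vehicle mouse 3. The log2 fold change was 2.18 (SE 0.33, 4.52-fold, limma adjusted p = 0.000619), and it stayed between 1.94 and 2.38 with any 1 array left out, the array with pancreas markers included.

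At 9 h the count was again 1 higher and 0 lower, beside 2.49% and 2.05% of all genes. Lcn2 read 12.67, 11.32, 11.37, 9.16 and 11.95 against 9.43, 9.03, 9.40, 8.80 and 8.04. Mouse 4 lay within the vehicle range while the other 4 were above 11. The log2 fold change was 2.35 (SE 0.52, 5.11-fold, limma adjusted p = 0.00498), and it was 2.89 without mouse 4. That mouse was the lowest of its group for 8 of the 10 members, all except Saa1 and Saa3. Over the 15 neutrophil markers the APAP mice at 9 h had means between 7.70 and 8.01, above the vehicle range of 7.40 to 7.56, and mouse 4 was at 7.71. Without S100a8 and S100a9 the mean of the other 13 lay between 7.61 and 7.83 after APAP. After vehicle it lay between 7.51 and 7.68, so the groups overlapped. Of the 15 markers 2, 0 and 2 were called higher and 0 lower at 3, 6 and 9 h, beside 1.68%, 2.29% and 2.49% of all genes called higher. The median log2 fold changes of the 15 were 0.15, 0.13 and 0.15. The called ones were S100a8, at 0.83 (adjusted p = 0.00121) and 2.04 (adjusted p = 0.000216), and S100a9, at 0.66 and 1.62, while Mpo differed by -0.16 at 9 h (adjusted p = 0.252). Of the 13 monocyte and macrophage markers 1, 2 and 5 were called higher and 0 lower at these times, with medians of 0.07, 0.11 and 0.36. Their mean lay between 8.30 and 9.04 in APAP mice at 9 h and between 7.94 and 8.19 in vehicle mice. The part of neutrophils, monocytes or macrophages in the early change of Lcn2 was not tested.

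At 3 h, 0 of 10 members were higher and 1 was lower, beside 1.68% and 2.34% of all genes. The lower gene was Orm2, which read 7.82, 7.81, 7.72, 8.47 and 8.95 after APAP and 8.95, 9.13, 8.83, 8.84 and 8.81 after vehicle. APAP mice 1 to 4 were below all vehicle mice and mouse 5 was within their range. Its log2 fold change was -0.76 (SE 0.20, limma adjusted p = 0.0168), and the call was lost (adjusted p = 0.152) in 1 model over all 45 arrays. Lcn2 at 3 h differed by 0.62 (adjusted p = 0.0691), and it was called without vehicle mouse 3 (0.76, adjusted p = 0.0259) or APAP mouse 2 (0.81, adjusted p = 0.00864).

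Serpina3n ran slightly above vehicle at every time. It differed by 0.33 at 3 h (limma adjusted p = 0.0163), 0.36 at 6 h (adjusted p = 0.0174) and 0.47 at 9 h (adjusted p = 0.0466), each under the 1.5-fold minimum, and at 3 h and 6 h the groups did not overlap. Without APAP mouse 4 its difference at 9 h was 0.59 and was called (adjusted p = 0.00851). Saa1 differed by -0.23, 0.40 and -0.21 at 3, 6 and 9 h, and Saa2 by 0.19, 0.44 and 0.13, with overlapping groups and adjusted p from 0.234 to 0.713. Saa3 differed by -0.32 at 9 h (adjusted p = 0.015), also under the minimum. Hp, Hpx, Itih4 and Apcs did not pass at 3, 6 or 9 h, the largest difference among them being -0.33 for Apcs at 3 h (adjusted p = 0.0893). The member medians at 3, 6 and 9 h were 0.02, -0.01 and 0.02, beside 0.02, 0.01 and -0.03 over all genes.

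Whether the effect of APAP itself differed between times was tested as a difference of differences over all vehicle and APAP arrays. These arrays share 1 estimate of the spread, while some members were far more uneven in APAP mice at 24 h than elsewhere. The SD of Saa2 was 2.52 in that group and 0.78 in APAP mice at 3 h. Its gain had an SE of 0.83, below the 0.96 of its 24 h difference alone. The same held for Saa3 (0.40 against 0.45) and Orm2 (0.56 against 0.66). For these genes the p-values of gains at 24 h may be too small, and Saa2 and Saa3 were not called at 24 h itself. From 3 h to 24 h the effect grew for 6 of 10 members and shrank for 0, beside 6.03% and 2.21% of all genes. The gains were 3.32 for Orm2 (SE 0.56, limma adjusted p = 2.43e-05), 3.27 for Lcn2 (SE 0.72, adjusted p = 0.00065), 2.46 for Saa2 (SE 0.83, adjusted p = 0.0192), 2.43 for Saa1 (SE 0.64, adjusted p = 0.00335), 1.61 for Apcs (SE 0.25, adjusted p = 6.22e-06) and 0.99 for Saa3 (SE 0.40, adjusted p = 0.0485). The gain of Saa3 was 0.27 (adjusted p = 0.41) and that of Saa2 0.97 (adjusted p = 0.0986) without APAP 24 h mice 1 and 3. With 1 array left out at a time, Saa3 was called in 6 of 20 cases. For Serpina3n the difference was 0.60 (adjusted p = 0.0521), and it was called when vehicle 24 h mouse 3, APAP 3 h mouse 4 or APAP 24 h mouse 2, 4 or 5 was left out (0.67 to 0.72).

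From 9 h to 24 h the effect grew for 5 members and shrank for 0, beside 1.74% and 1.24% of all genes: Orm2 by 2.82, Saa2 by 2.52, Saa1 by 2.41, Saa3 by 1.32 and Apcs by 1.10. Orm2 and Apcs kept their calls without mice 1 and 3, where 2 members passed in all. Saa2 was called in 7 of 20 cases with 1 array left out. The effect on Lcn2 differed by 1.53 (SE 0.72, limma adjusted p = 0.166) between these times, short of the threshold. From 3 h to 9 h, 0 of 10 members passed in either direction, beside 2.35% and 0.776% of all genes. By limma 2 members had an unadjusted p under 0.05, beside 29.2% of all genes, Lcn2 (0.0216) and Apcs (0.0494), and both passed, at 2.27 and 0.70, once APAP 9 h mouse 4 was left out.

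Vehicle livers were not level over time. Compared with the untreated mice, whose 5 arrays are shared by all 4 comparisons, 0 of 10 members were higher or lower at 3 h, beside 1.14% and 0.853% of all genes. The limma test gave 6 of the 10 an unadjusted p under 0.05 at that time, beside 26.1% of all genes, and 1 was called without vehicle mouse 2 (Saa1) or without untreated mouse 1 (Lcn2). At 6 h, 0 were higher and 1 lower, beside 1.71% and 1.19%. At 9 h, 1 was higher and 3 lower, beside 2.03% and 1.84%, and at 24 h, 1 was higher and 3 lower, beside 2.31% and 2.09%. Time of day, time since the fast began, feeding after dosing and the gavage differ with group here and cannot be told apart.

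Saa1 drifted down in vehicle livers. It read 11.94, 12.25, 11.59, 12.11 and 11.60 in untreated mice and 10.05, 10.78, 11.03, 10.16 and 9.73 in vehicle mice at 24 h, with no overlap. Its log2 change was -0.63 at 3 h (limma adjusted p = 0.149), -0.87 at 6 h (adjusted p = 0.0225), -1.41 at 9 h (adjusted p = 0.00307) and -1.55 at 24 h (adjusted p = 0.00019). The 6 h call was lost without untreated mouse 2 (adjusted p = 0.051) or untreated mouse 4 (adjusted p = 0.0502).

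Saa2 followed, with -0.86 at 9 h (limma adjusted p = 0.000217) and -0.70 at 24 h (adjusted p = 0.00173). In 1 model over all 45 arrays, whose spread takes in the uneven APAP mice at 24 h, both calls of Saa2 were lost (adjusted p = 0.314 and 0.45). Lcn2 read 9.24, 11.08, 9.65, 10.75 and 9.93 in untreated mice, with mice 2 and 4 highest, so undosed mice already differed widely. Against these it fell by 1.19 at 9 h (adjusted p = 0.0236), where the call was lost on leaving out untreated mouse 2, untreated mouse 4 or vehicle mouse 4 (adjusted p from 0.0512 to 0.0596). At 24 h its change was -1.27 (adjusted p = 0.0581), and it was called without untreated mouse 1 or vehicle mouse 2 or 3 (-1.54 to -1.49). At 6 h it was called without untreated mouse 1 (-1.05) or vehicle mouse 3 (-1.04).

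Serpina3n fell by 0.91 at 24 h in vehicle livers (SE 0.09, limma adjusted p = 1.19e-05), from 12.71, 13.00, 12.87, 13.06 and 12.94 in the untreated mice. Apcs went the other way. It read 11.72, 11.92, 11.60, 11.82 and 11.49 in untreated mice and was higher by 0.72 at 9 h (adjusted p = 0.000116) and by 0.73 at 24 h (adjusted p = 2.05e-05), when no vehicle mouse was below 12.32. Orm2 differed from untreated by 0.17, -0.07, -0.02 and 0.07 at 3, 6, 9 and 24 h (adjusted p from 0.583 to 0.949). Hp, Hpx and Itih4 had no adjusted p under 0.05 at any of the 4 times, the largest difference among them being 0.15 for Itih4 at 24 h (adjusted p = 0.21).

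**Figure D4:**
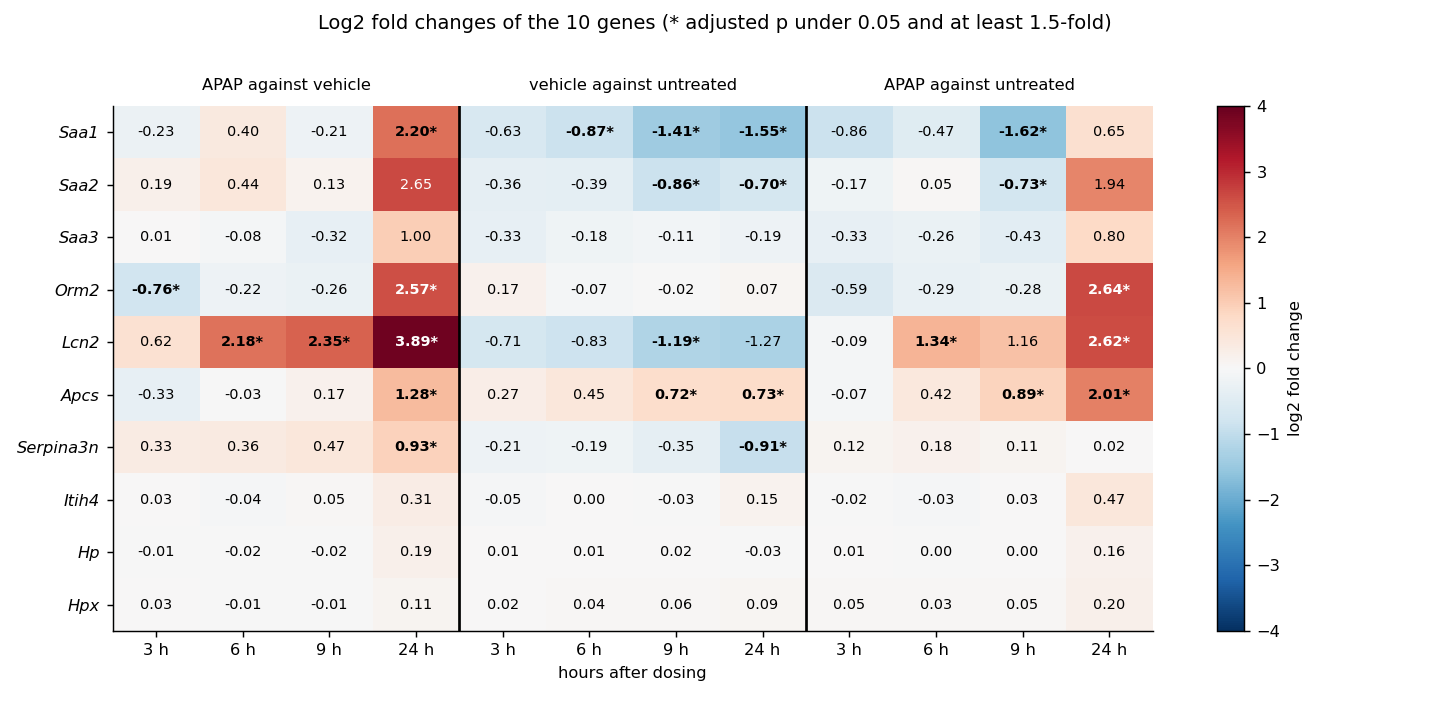
Log2 fold changes of the 10 members (rows) in APAP against vehicle, vehicle against untreated and APAP against untreated livers at 3, 6, 9 and 24 h (columns), on a colour scale from -4 to 4, with an asterisk where the limma adjusted p was under 0.05 and the change at least 1.5-fold. Saa1 falls to -1.55 and Serpina3n to -0.91 in vehicle livers at 24 h, and Orm2, Lcn2 and Apcs are the 3 members called higher against untreated livers at 24 h after APAP.

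Set against the untreated mice, again 5 shared arrays, APAP livers at 24 h had 3 of 10 members higher and 0 lower, beside 4.99% and 3.14% of all genes. Orm2 was higher by 2.64 (SE 0.64, limma adjusted p = 0.00923), Lcn2 by 2.62 (SE 0.56, adjusted p = 0.00464) and Apcs by 2.01 (SE 0.16, adjusted p = 8.59e-06), all with no overlap between groups. Without APAP mice 1 and 3 these were 1.48, 1.73 and 1.76, each still called. Saa1 and Serpina3n, called higher against vehicle, were not called here.

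Saa1 after APAP at 24 h was 0.65 above untreated (SE 0.52, limma adjusted p = 0.336), with mice 4 and 5, at 11.34 and 11.08, below every untreated mouse. Serpina3n was 0.02 above untreated (SE 0.24, adjusted p = 0.959), at 12.93 ± 0.601 after APAP and 12.92 ± 0.136 in untreated livers (SD, n = 5). Without mice 1 and 3 the sign turned for Saa1, at -0.19 (adjusted p = 0.698), and for Serpina3n, at -0.36 (adjusted p = 0.0121). Saa2 differed by 1.94 (SE 0.96, adjusted p = 0.129) and Saa3 by 0.80 (SE 0.45, adjusted p = 0.178) with all 5 mice, neither past the threshold. Itih4 differed by 0.47, Hpx by 0.20 and Hp by 0.16 (adjusted p = 0.00173, 0.00626 and 0.0271), all below the 1.5-fold minimum and without overlap.

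At the earlier times APAP livers had few members past the threshold against untreated livers. At 3 h, 0 were higher and 0 lower, beside 1.69% and 1.29% of all genes, and limma gave 3 members an unadjusted p under 0.05, beside 29.3% of all genes. Without APAP mouse 5, Saa1 and Orm2 were called lower at 3 h, at -1.13 and -0.79. At 6 h, 1 was higher and 0 lower, beside 2.49% and 1.77%: Lcn2, by 1.34 (SE 0.39, adjusted p = 0.0302). At 9 h, 1 was higher and 2 lower, beside 3.69% and 2.62%. Apcs was higher by 0.89 (adjusted p = 0.00398), Saa1 fell by 1.62 (adjusted p = 1.6e-05) and Saa2 changed by -0.73 (adjusted p = 0.000298). The 6 h call of Lcn2 was lost when untreated mouse 1, 3 or 5 or APAP mouse 1 or 4 was left out (1.11 to 1.29), and at 9 h it was called, at 1.70, without APAP mouse 4.

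Other positive acute phase genes gave a mixed picture. Of 25 listed, 3 were higher and 0 lower than vehicle at 3 h, beside 1.68% and 2.34% of all genes. At 6 h the counts were 3 and 1, beside 2.29% and 3.03%, and at 9 h 5 and 1, beside 2.49% and 2.05%. At 24 h 8 were higher and 0 lower, beside 2.86% and 1.82%. The medians of the 25 were 0.04, 0.08, 0.13 and 0.31. The largest at 24 h were the metal-binding metallothioneins Mt2 at 4.39 (limma adjusted p = 0.000308) and Mt1 at 2.71 (adjusted p = 0.0012), which were already higher at 3 h, by 3.72 and 1.74. Next came the lipopolysaccharide co-receptor Cd14, also among the macrophage markers, at 1.55 (adjusted p = 0.0195) and the metalloreductase Steap4 at 1.20 (adjusted p = 0.0301). In vehicle against untreated livers at 24 h, Mt1 changed by -3.17 and Mt2 by -4.46 (adjusted p = 4.85e-07 and 4.53e-07).

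Of relatives of the members, Saa4, the constitutive serum amyloid A of high-density lipoprotein, fell by 1.06 at 6 h (limma adjusted p = 0.000626) and fell by 1.00 at 9 h (adjusted p = 0.00152), and it differed by 0.24 at 24 h (adjusted p = 0.4). Orm1, a near copy of Orm2, differed by 0.40 at 24 h (adjusted p = 0.0224), under the 1.5-fold minimum, and whether its probes and those of Orm2 read each other's transcripts was not tested. Of 15 negative acute phase genes, which fall in the classical response, 0 were higher and 1 lower at 24 h, with a median of 0.00. The shares of all genes were 2.86% and 1.82%. The lower gene was Serpina6, which encodes corticosteroid-binding globulin, at -2.06 (adjusted p = 0.0225). At 3, 6 and 9 h, 0, 1 and 1 were lower and 0 higher, beside 2.34%, 3.03% and 2.05% of all genes called lower. Means of the 15 lay between 13.65 and 13.73 after APAP at 6 h and between 13.82 and 13.93 after vehicle. At 9 h they lay between 13.63 and 13.72 after APAP and between 13.87 and 13.94 after vehicle. At 24 h the groups overlapped, at 13.66 to 13.98 after APAP and 13.91 to 13.97 after vehicle. Alb and Ttr, the genes of albumin and transthyretin, differed by -0.02 and -0.07 at 24 h (adjusted p = 0.709 and 0.17).

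Some genes of the pathways that act upstream of the acute phase were called higher from 3 h on. Of 32 measured, 6, 8, 7 and 9 were called higher at 3, 6, 9 and 24 h, beside 1.68%, 2.29%, 2.49% and 2.86% of all genes, and the other 26, 24, 25 and 23 were not called in either direction. Over the list the log2 fold changes had medians of 0.26, 0.20, 0.30 and 0.27. At 3 h the largest were Cebpd, a C/EBP transcription factor, at 2.24 (limma adjusted p = 7.01e-06), Socs3, the feedback inhibitor of gp130 signalling, at 2.06 (adjusted p = 3.57e-06), Nfkbiz, a nuclear partner of NF-kappaB, at 1.96 (adjusted p = 3.11e-07), and Osmr, the oncostatin M receptor, at 1.38 (adjusted p = 2.21e-06). At 24 h Socs3 was at 1.86 (adjusted p = 0.0167), the interleukin-1 receptor Il1r1 at 1.32 (adjusted p = 0.00833), Nfkbiz at 1.14 (adjusted p = 0.0064) and Cebpd at 1.02 (adjusted p = 0.0364).

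The cytokine Il6 itself differed by 0.25 at 3 h (limma adjusted p = 0.0167), under the 1.5-fold minimum, and by 0.20 at 24 h (adjusted p = 0.168). In vehicle against untreated livers 1 of the 32 upstream genes was higher and 6 were lower at 24 h, beside 2.31% and 2.09% of all genes. Among the 6 were Socs3 at -1.04, Cebpd at -0.96 and Il1r1 at -0.89. Of 10 glucocorticoid target genes, 6, 4, 3 and 2 were higher than vehicle at 3, 6, 9 and 24 h, and 1 was lower at both 6 h and 9 h. The shares of all genes called higher were 1.68%, 2.29%, 2.49% and 2.86%. The medians of the 10 were 0.91, 0.49, 0.07 and 0.23. Dusp1, a MAP kinase phosphatase, was at 2.89 at 3 h (limma adjusted p = 2.12e-06), and Fkbp5, a chaperone partner of the glucocorticoid receptor, was at 0.78 at 24 h (adjusted p = 0.00197). Vehicle against untreated livers had 0 of the 10 higher and 3 lower at 3 h (median -0.38), beside 1.14% and 0.853% of all genes. APAP against untreated livers had 3 higher and 1 lower at 3 h (median 0.05), beside 1.69% and 1.29%. At 24 h they had 1 higher and 3 lower (median -0.13), beside 4.99% and 3.14%. The part of these pathways in the changes of the members was not tested.

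**Figure D5:**
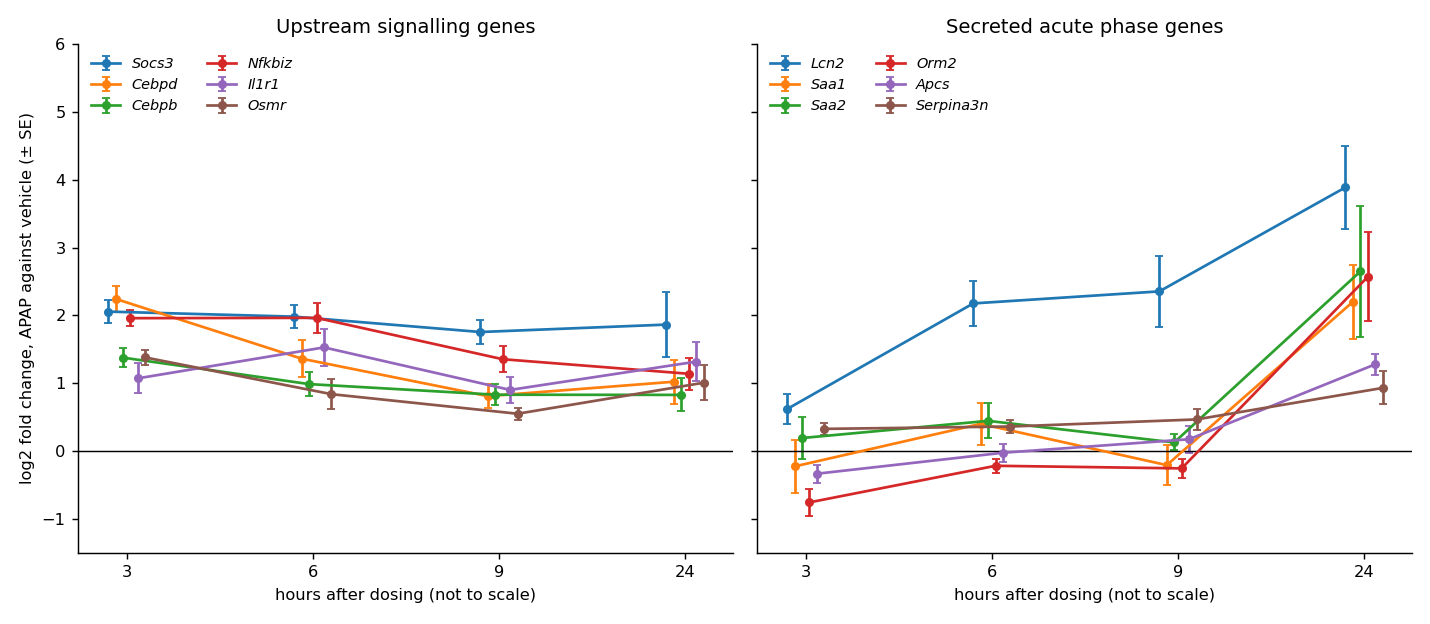
Log2 fold change of APAP against vehicle (y axis, ± SE from limma, 5 mice a group) for 6 genes upstream of the acute phase (left) and 6 members (right) at 3, 6, 9 and 24 h (x axis, not to scale). Socs3, Cebpd and Nfkbiz are near 2 at 3 h, when the members lie between -0.76 and 0.62, and Orm2, Saa1, Saa2 and Apcs reach 1.28 to 2.65 at 24 h.

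Across the 45 arrays all members but Serpina3n were positively correlated with each other. Pearson correlations, given as a description over arrays that share treatments and times, were 0.88 between Saa2 and Saa3, 0.87 between Orm2 and Hp and 0.84 between Saa1 and Saa2, and all 36 pairs among the 9 members other than Serpina3n lay between 0.32 and 0.88. The 9 pairs with Serpina3n ran from -0.03 with Hpx to 0.68 with Lcn2. Among all other genes, those most like Orm2 were Orm1 (0.93), Gas6 (0.90) and Slc30a7 (0.88), and those most like Lcn2 were Lrg1 (0.93), Stk24 (0.87) and Sdcbp (0.86). Lrg1 encodes a leucine-rich glycoprotein that is itself an acute phase protein. Apcs was most like Calu (0.92), a calcium-binding protein of the endoplasmic reticulum.

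Cd244a and Kcnt2 were among the 3 genes most like Saa2 and also among those most like Saa3, with correlations from 0.84 to 0.88. Saa2 and Saa3 were highest of all arrays in APAP 24 h mouse 3, at 13.49 and 11.99, the next highest being 9.73 and 10.41. How far these correlations, and that of Saa2 with Saa3, rest on that array was not tested. Cd244a encodes a receptor of natural killer cells. For Saa1 the highest value, 0.76 with Cd302, was lower than for the other members. Hpx was most like Skap2 (0.89), Itih4 like Ctsb (0.89), the lysosomal protease cathepsin B, Serpina3n like Cyp3a13 (0.86), a cytochrome P450, and Hp like Slc30a7 (0.78), a zinc transporter.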

How the data were processed

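The authors computed the deposited log2 values with RMA (background correction, quantile normalization and probe summary) in affy 1.64.0 under R 3.6.1, per the labels and the study's methods, with probes regrouped into 1 value for each Entrez gene by BrainArray version 24, and used limma 3.42.2 for their tests. The values of 45 mouse arrays were used as deposited. A second table gave gene symbols, and its 45 value columns, whose codes no label ties to a mouse, were not used. Rat arrays were not analysed here.

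Each comparison was fitted with limma 3.58.1 (lmFit, eBayes, two-sided) in R 4.3.3 on the arrays of its groups, and the change of the APAP effect between times on the vehicle and APAP arrays. Replicate numbers name mice and were not used as a block. The procedure was tested on simulated data. Members and gene lists were chosen with earlier results of these data known. Beyond the members, up to 4 called genes with the largest change and 2 not called were named per list and time, with the 3 genes most correlated with each member, 11 lists being searched in all. Alternatives were each array left out in turn, APAP 24 h mice 1 and 3 left out, a replicate block, 1 model over all arrays, trend and robust moderation, array weights (statmod 1.5.0), the dimmest 25% of genes left out, re-centring, an adjusted p under 0.01, and limma's treat test against a 1.5-fold change. Precision is limited by how many arrays there are. The lists not described above had these counts at 24 h against vehicle, higher then lower, beside 2.86% and 1.82% of all genes. Kupffer cell markers had 1 and 0 of 10, endothelial and stellate 1 and 1 of 12, and lymphocyte 0 and 0 of 8. Pancreas and gallbladder markers had 0 and 1 of 8, and hepatocyte markers 0 and 0 of 9. In that order limma gave 2, 6, 2, 4 and 2 of these genes an unadjusted p under 0.05, beside 44.8% of all genes. Promoter runs are from RefSeq (GRCm38.p6).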

Additional observations from a re-analysis of the deposited data

Results flagged for a closer look

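Among 90 sets of 5 arrays (10 members in 9 groups), 5 had an array set apart from the rest of its group by Dixon's test, where chance flags about 1 in 20. These were Saa2 in untreated mouse 4 (7.80, the next highest being 7.39), Lcn2 in vehicle 6 h mouse 3 (10.13, next 9.19), Hpx in untreated mouse 2 (14.63, next 14.55), Itih4 in untreated mouse 2 (14.26, next 13.91) and Itih4 in vehicle 6 h mouse 3 (14.15, next 13.93). Vehicle 6 h mouse 3 stood apart for both Lcn2 and Itih4, its S100a8 value of 7.51 was the highest of its group, and the Lcn2 call at 6 h held without it.

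Differences in the APAP effect between times, tested as an interaction in limma, passed for 6 members from 3 h to 24 h: Saa1 by 2.43, Saa2 by 2.46, Saa3 by 0.99, Orm2 by 3.32, Lcn2 by 3.27 and Apcs by 1.61 on the log2 scale. From 9 h to 24 h they passed for 5: Saa1 by 2.41, Saa2 by 2.52, Saa3 by 1.32, Orm2 by 2.82 and Apcs by 1.10. All of these were gains at 24 h, and all 5 mice of the APAP 24 h group except mouse 5 for Saa3 were above the vehicle mean. The spread shared by all groups of this test may make the p-values of Saa2, Saa3 and Orm2 too small.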

How the results depend on the processing

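No direction of a called member reversed under any alternative run. Counts of called members were the same or within 1.5 times the reported count except as follows. In 1 model over all 45 arrays, APAP against vehicle at 3 h gave 0 (1 as reported), vehicle against untreated 0 at 6 h (reported 1) and 2 at 9 h (reported 4), and APAP against untreated 5 at 24 h (reported 3). Array weights gave 2 for APAP against vehicle at 3 h, 2 for vehicle against untreated at 6 h, 1 for APAP against untreated at 3 h (reported 0) and 3 for the effect at 24 h against 9 h (reported 5). Trend and robust moderation gave 0 for APAP against untreated at 6 h (reported 1). At an adjusted p under 0.01, APAP against vehicle gave 0 at 3 h and 2 at 24 h (reported 5), vehicle against untreated 0 at 6 h, APAP against untreated 0 at 6 h, and the effect at 24 h against 9 h 3. The test against a 1.5-fold change, which asks for more, gave 0, 0 and 1 for APAP against vehicle at 3, 9 and 24 h, 0, 0 and 1 for vehicle against untreated at 6, 9 and 24 h, 0, 1 and 1 for APAP against untreated at 6, 9 and 24 h, and 3 and 0 for the effect at 24 h against 3 h (reported 6) and 9 h; over all genes it called 200, 160, 166 and 47 at 3, 6, 9 and 24 h against vehicle, where the reported test called 732, 967, 826 and 851. In the same way it called 60, 77, 156 and 241 genes of 363, 526, 704 and 800 for vehicle against untreated, 135, 119, 314 and 334 of 541, 774, 1147 and 1477 for APAP against untreated, and 168, 32 and 24 of 1499, 542 and 568 for the effect at 24 h against 3 h, 24 h against 9 h and 9 h against 3 h. For APAP against vehicle at 24 h all-gene calls were 537 at an adjusted p under 0.01 and 498 without APAP mice 1 and 3, and without them the effect at 24 h against 9 h gave 2 members. The cause of these shifts was not tested.

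With 1 array left out, called members ranged from 1 to 2 at 3 h, 1 to 1 at 6 h, 1 to 2 at 9 h and 5 to 6 at 24 h for APAP against vehicle, from 0 to 1, 0 to 2, 3 to 4 and 4 to 5 for vehicle against untreated, from 0 to 2, 0 to 1, 3 to 4 and 3 to 3 for APAP against untreated, and from 5 to 7, 4 to 5 and 0 to 2 for the effect at 24 h against 3 h, 24 h against 9 h and 9 h against 3 h. The replicate block moved vehicle against untreated at 3 h from 0 to 1 called member, Saa1 (adjusted p = 0.013), and called Saa2 at 24 h against vehicle (adjusted p = 0.0496) and Lcn2 at 24 h in vehicle against untreated livers (adjusted p = 0.0358); it changed no other call of a member. The array titles give only a number, and whether same-numbered APAP and vehicle mice shared anything else is not known from them. The deviations of such pairs correlated from -0.27 to 0.40, above 0.1 in 3 of 20 pairs. The number of mice limits what can be called.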
